A study of Mus musculus with 8 samples.

Results

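The data cover the 10 matrix metalloproteinase genes that lie side by side on mouse chromosome 9: the stromelysins Mmp3 and Mmp10, the collagenases Mmp13, Mmp8, Mmp1a and Mmp1b, the macrophage elastase Mmp12, the matrilysin Mmp7, the enamelysin Mmp20, and Mmp27. All probes carrying these gene symbols were taken, whatever their values. The search returned 14 of the 25697 probes on the Illumina MouseRef-8 v2.0 array, for 9 of the 10 genes, among 16593 genes named by a probe. No probe was named Mmp27, so its expression was not analysed here.

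Gene expression was measured in cultured mouse bone marrow mesenchymal stem cells (MSCs), purchased and used at passage 6, after lipofection with plasmid DNA. The control group received empty vector (EV, 4 arrays), and the other group received Myc-L63RhoA (4 arrays), a Myc-tagged RhoA that is locked in the active state. Both groups were grown in the same serum-containing medium and neither received a further agent. The sample records give 48 h between transfection and RNA extraction, whereas the methods give 3 days. Whole cultures were harvested without selecting transfected cells, so each array reads transfected and untransfected cells together. The study describes 4 independent experiments, but the records do not tie a replicate number to an experiment. In whole cultures, fewer cells of a type and less RNA per cell cannot be told apart.

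Matrix metalloproteinases are secreted as inactive proenzymes and cut proteins of the extracellular matrix once their propeptide is removed. The stromelysins cut proteoglycans, laminin and fibronectin and also help to activate the collagenases, which can open the triple helix of fibrillar collagen. In fibroblasts and MSCs several of these genes are known for low resting expression that growth factors and inflammatory cytokines raise. This occurs in good part through AP-1 factors (Fos and Jun dimers) that bind close to the transcription start. Mmp13 and Mmp3 were not low in the EV cultures here. Their brightest probes had mean EV signals of 13638 and 2413. Of the 25697 probes, 47 and 677 had a higher mean signal over all 8 arrays.

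The order of the genes along the chromosome, in the RefSeq annotation of GRCm38.p6, was Mmp13, Mmp12, Mmp1b, Mmp3, Mmp1a, Mmp10, Mmp8, Mmp27, Mmp20 and Mmp7. The 250 bases before the annotated start were searched for the AP-1 motif TGAGTCA on both strands and for TATAAA on the strand of the gene. The 10 genes have 12 listed starts. AP-1 letters were found before 7 of the 12, at 7 genes, compared with 4.46% of 32851 mouse promoters, and TATAAA was also found before 7 of the 12, compared with 7.59%. No cluster promoter held a CArG box, the motif of serum response factor, and 1.47% of all promoters did. The sequences are the promoters of the 4 stromelysin and collagenase genes that passed detection on the arrays, followed by that of Mmp8, which has no AP-1 match and was not detected. They are given 5′ to 3′ on the plus strand, which is the strand of all 5 genes, with AP-1 letters in capitals, and lie at chr9:7445572-7445821 (Mmp3), chr9:7272264-7272513 (Mmp13), chr9:7502092-7502341 (Mmp10), chr9:7463891-7464140 (Mmp1a) and chr9:7558179-7558428 (Mmp8) of GRCm38.p6.
Mmp3: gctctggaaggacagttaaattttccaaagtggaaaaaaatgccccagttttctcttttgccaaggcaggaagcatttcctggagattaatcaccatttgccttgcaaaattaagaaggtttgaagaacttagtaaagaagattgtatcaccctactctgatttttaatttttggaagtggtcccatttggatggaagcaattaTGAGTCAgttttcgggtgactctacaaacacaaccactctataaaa
Mmp13: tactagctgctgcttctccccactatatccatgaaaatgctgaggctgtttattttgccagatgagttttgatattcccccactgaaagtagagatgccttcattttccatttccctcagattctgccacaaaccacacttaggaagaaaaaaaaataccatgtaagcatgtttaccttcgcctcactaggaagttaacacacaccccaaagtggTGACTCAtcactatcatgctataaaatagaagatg
Mmp10: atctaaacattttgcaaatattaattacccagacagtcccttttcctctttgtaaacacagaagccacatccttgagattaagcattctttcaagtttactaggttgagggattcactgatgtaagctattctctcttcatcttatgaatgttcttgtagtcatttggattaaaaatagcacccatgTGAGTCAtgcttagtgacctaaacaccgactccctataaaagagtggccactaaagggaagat
Mmp1a: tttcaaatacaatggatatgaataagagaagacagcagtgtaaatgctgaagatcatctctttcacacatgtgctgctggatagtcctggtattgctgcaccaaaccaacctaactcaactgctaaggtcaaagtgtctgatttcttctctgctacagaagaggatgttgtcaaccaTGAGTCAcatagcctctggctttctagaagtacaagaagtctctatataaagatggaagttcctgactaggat
Mmp8: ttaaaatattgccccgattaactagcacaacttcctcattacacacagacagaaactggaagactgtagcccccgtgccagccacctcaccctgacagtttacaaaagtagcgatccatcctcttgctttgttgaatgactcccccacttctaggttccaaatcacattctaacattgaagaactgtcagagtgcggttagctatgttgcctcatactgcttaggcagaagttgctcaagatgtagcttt
The match began 46 bases before the start of Mmp3, 35 before that of Mmp13, 63 before that of Mmp10 and 73 before that of Mmp1a. A match of letters is a description of the sequence and not of binding, which was not measured.

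On the EV arrays 12546 to 12928 probes were detected (detection p under 0.05). L63RhoA replicate 1 had 12981, whereas L63RhoA replicates 2, 3 and 4 had 12119, 11927 and 11925, below every EV array. The lowest detected signals were 91.1 to 103 in EV and 101 to 106 in L63RhoA, so detection near the floor was not alike in the groups. Rhoa could not follow the transfection: its only probe was detected on 0 of 8 arrays, with signals of 84.8 to 100.6. Within groups, the main component held 45.4% of the variance, and EV replicate 3 and L63RhoA replicate 1 lay farthest from their groups on it. Of the MSC markers, 10 of 13 genes were detected and tested, among them the nestin gene Nes, Pdgfra, Vcam1 and Nt5e, and 0 passed the test of the difference, while Thy1 and Lepr were not detected on any array. Among 7 macrophage markers with a probe, Ptprc, Itgam, Adgre1, Lyz2 and Fcgr1 were not detected on any array, whereas Cd14 was detected on 8 arrays (signals of 271 to 396) and Mrc1 on 4 EV and 3 L63RhoA arrays, and neither passed the test.

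Probes detected on at least 4 arrays entered the comparison, which left 9 of the 14 cluster probes, belonging to Mmp3, Mmp13, Mmp12, Mmp1a and Mmp10. Fits were made over all 12349 such probes, and p-values were adjusted over all of them. Of the 9 cluster probes, 4 were lower in L63RhoA at an adjusted p under 0.05, compared with 0.316% of all probes tested, and 0 were higher, compared with 0.324%. These 4 belonged to 2 genes, Mmp3 and Mmp13. At an unadjusted p under 0.05, 6 were lower and 0 higher, compared with 11.4% and 11.7% of all probes. In 7 of the 9 the groups did not overlap with L63RhoA lower, and in 0 with L63RhoA higher, compared with 4.85% and 4.52%. The median log2 difference was -0.45 over the 9 cluster probes and -0.0036 over all probes. Probes of 1 gene share their target, so these counts do not stand for 9 separate genes.

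**Figure D1:**
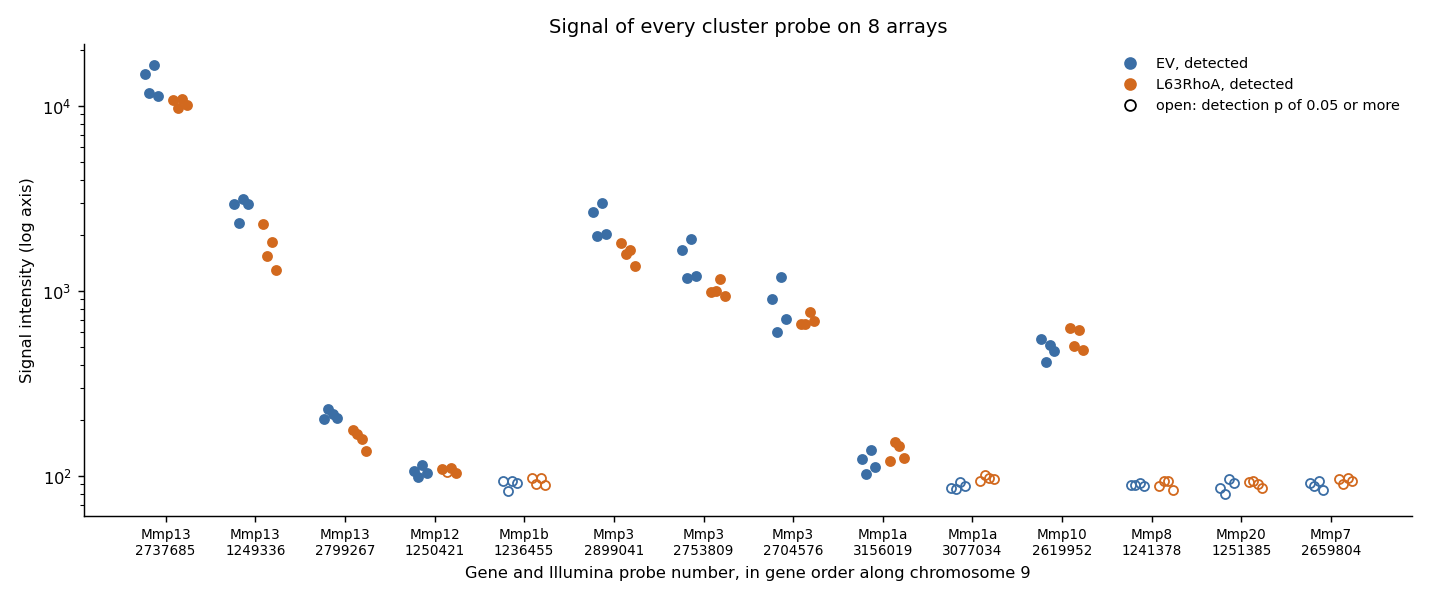
Deposited signal intensity of the 14 cluster probes on 8 arrays (log axis), in gene order along chromosome 9, with EV in blue and L63RhoA in orange. Open circles mark arrays with a detection p of 0.05 or more: the 5 probes drawn open throughout stayed between 79.7 and 101 on all arrays.

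Mmp3, the stromelysin that cleaves a wide range of matrix proteins and activates other proenzymes, was lower in L63RhoA at 2 of its 3 probes. At probe ILMN_2899041 the signals were 2658, 1977, 2994 and 2021 in EV replicates 1 to 4 and 1818, 1593, 1662 and 1361 in L63RhoA replicates 1 to 4. Every L63RhoA array was below every EV array before any normalisation. After normalisation the EV arrays lay close together at 11.27, 11.32, 11.25 and 11.26 (log2), whereas the L63RhoA arrays read 10.68, 10.45, 10.52 and 10.37. The group means were 11.27 ± 0.031 and 10.51 ± 0.13 (SD, n = 4 each). Mmp3 thus fell by 0.76 on the log2 scale (SE 0.094, 95% confidence interval -0.97 to -0.56, limma adjusted p = 0.0064), which is 41.1% lower (32.1 to 49.0%).

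Probe ILMN_2753809 of Mmp3 gave a similar picture, with signals of 1665, 1174, 1918 and 1197 in EV and 991, 999, 1154 and 944 in L63RhoA. Again the groups did not overlap, although the lowest EV array and the highest L63RhoA array were close. The means were 10.53 ± 0.060 in EV and 9.81 ± 0.11 in L63RhoA (log2, SD, n = 4 each). The level fell by 0.72 (SE 0.092, interval -0.93 to -0.52, limma adjusted p = 0.0064), or by 39.4%.

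The third Mmp3 probe, ILMN_2704576, read 906, 597, 1194 and 702 in EV and 659.8, 661, 765 and 689 in L63RhoA. These signals overlapped: EV replicate 2 was the lowest of the 8 arrays, and EV replicate 4 lay below L63RhoA replicate 3. Normalised values did not overlap, at 9.46 to 9.86 in EV and 9.06 to 9.32 in L63RhoA. The difference of -0.45 (SE 0.11, interval -0.70 to -0.20) missed the threshold at an adjusted p of 0.093. All 3 probes therefore pointed the same way, and 2 of them passed.

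**Figure D2:**
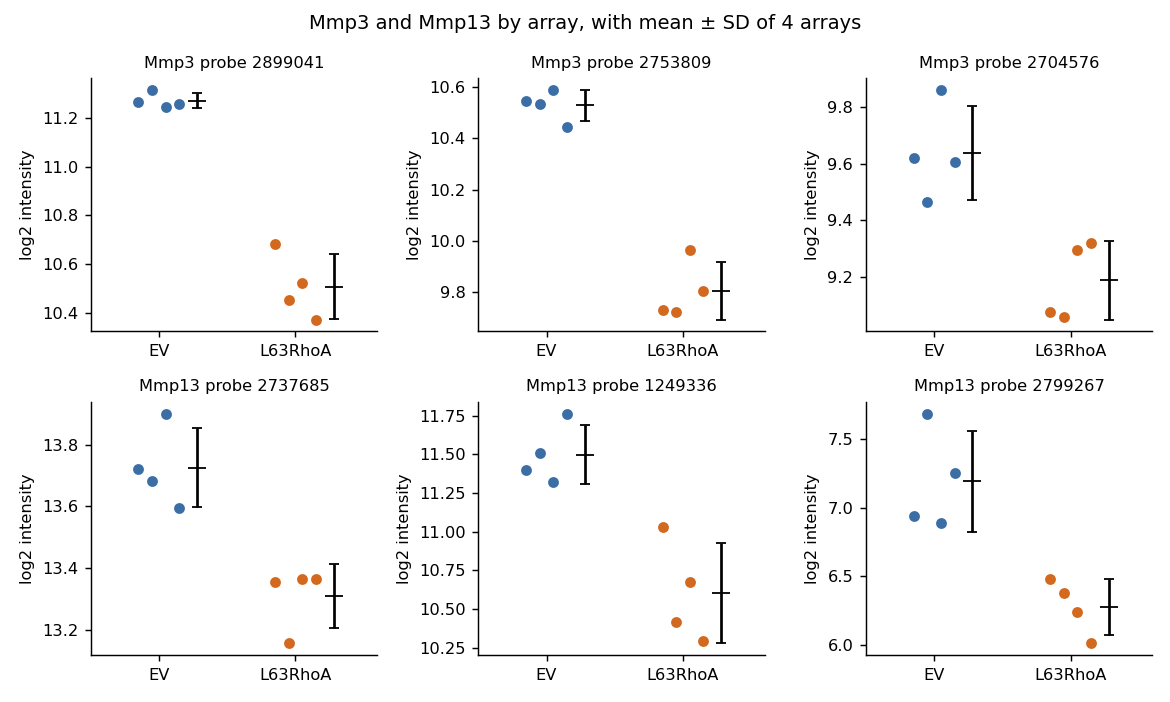
Normalised log2 intensity of the 3 Mmp3 probes and the 3 Mmp13 probes on each EV (blue) and L63RhoA (orange) array, with bars for the mean ± SD of 4 arrays and a separate scale in each panel. In all 6 panels the L63RhoA arrays lie below the EV arrays.

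Mmp13, the main interstitial collagenase of rodents, was lower in L63RhoA at 2 of its 3 probes. Probe ILMN_1249336 gave signals of 2934, 2321, 3153 and 2965 in EV and 2297, 1553, 1841 and 1290.4 in L63RhoA. L63RhoA replicate 1 lay just under the lowest EV array, and the other L63RhoA arrays were well below it. The log2 means were 11.50 ± 0.19 and 10.60 ± 0.32 (SD, n = 4 each). The level fell by 0.90 (SE 0.16, interval -1.25 to -0.54, limma adjusted p = 0.039), or by 46.3% (31.4 to 57.9%).

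At probe ILMN_2799267 of Mmp13 the signals were 202, 229, 216 and 205 in EV and 176, 168, 159 and 137 in L63RhoA. The groups did not overlap, but these signals are not far above the lowest detected signals, which were 91.1 to 106 across arrays. The level fell by 0.91 (SE 0.17, interval -1.29 to -0.53, limma adjusted p = 0.046), from 7.19 ± 0.36 to 6.28 ± 0.20 (log2, SD, n = 4 each). Its size rests on the background correction: with no further correction of the deposited intensities the difference was -0.53 (adjusted p = 0.044).

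Probe ILMN_2737685 of Mmp13 read 14869, 11776, 16548 and 11358 in EV and 10766, 9689, 10883 and 10141 in L63RhoA. All L63RhoA arrays were again below all EV arrays. The log2 means of 13.73 ± 0.13 and 13.31 ± 0.10 (SD, n = 4 each) differed by -0.41 (SE 0.10, interval -0.63 to -0.20), which missed the threshold at an adjusted p of 0.087. This was the smallest of the 3 Mmp13 differences, at 25.0% lower, beside 46.3% and 46.9% for the other probes.

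The calls differed in how far they rested on single arrays. Both Mmp3 calls held when each of the 8 arrays was left out in turn, with adjusted p between 0.0037 and 0.036. Both Mmp13 calls were lost on leaving out any one of EV replicates 1, 2 and 4 or L63RhoA replicates 2, 3 and 4, where the adjusted p was 0.094 to 0.15 for ILMN_1249336 and 0.090 to 0.16 for ILMN_2799267. Without EV replicate 3 they were 0.025 and 0.024, and without L63RhoA replicate 1 they were 0.0086 and 0.018. The Mmp13 differences themselves stayed between -1.04 and -0.79 and between -1.01 and -0.75. Leaving out EV replicate 3 and L63RhoA replicate 1 together, 6 cluster probes were lower, namely all 3 of Mmp3 and all 3 of Mmp13, and 1 was higher (Mmp1a). Calls over all probes then went from 79 to 3297.

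**Figure D3:**
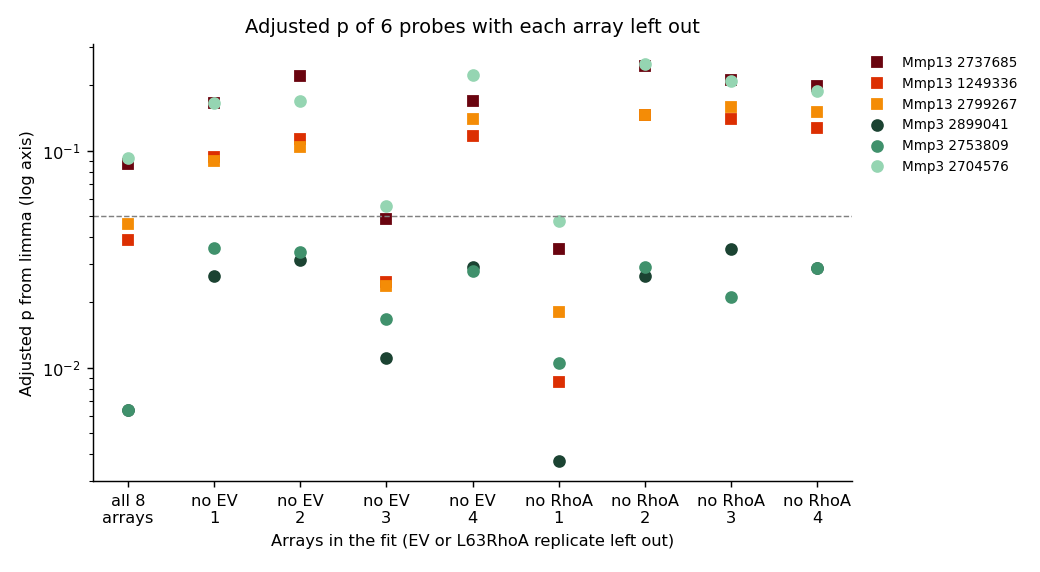
Adjusted p (limma, log axis) of the Mmp3 probes (green circles) and the Mmp13 probes (red and orange squares) with all 8 arrays and with each array left out. The dashed line is 0.05: Mmp3 probes ILMN_2899041 and ILMN_2753809, whose points partly overlie each other, stay below it, and the Mmp13 probes fall below it together only without EV replicate 3 or L63RhoA replicate 1.

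The disagreement among probes of a gene was tested on the log2 ratio of 2 probes on the same array, by exact two-sided permutation over the 8 arrays, for 6 pairs. With 4 arrays against 4 the smallest p is 0.029. The Mmp13 difference at ILMN_1249336 was 0.48 further below 0 than at ILMN_2737685 (exact p = 0.057, adjusted over pairs 0.17), and that at ILMN_2799267 was 0.50 further below (exact p = 0.14, adjusted 0.21). For Mmp3, ILMN_2704576 was nearer 0 than ILMN_2753809 by 0.27 (exact p = 0.029, adjusted 0.17) and nearer than ILMN_2899041 by 0.31 (exact p = 0.086, adjusted 0.17). The pair ILMN_2899041 and ILMN_2753809 differed by 0.04 (adjusted p = 0.89). None of the 6 pairs passed, so the smaller values of the 2 probes that missed the threshold were not separated from the others at this number of arrays.

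**Figure D4:**
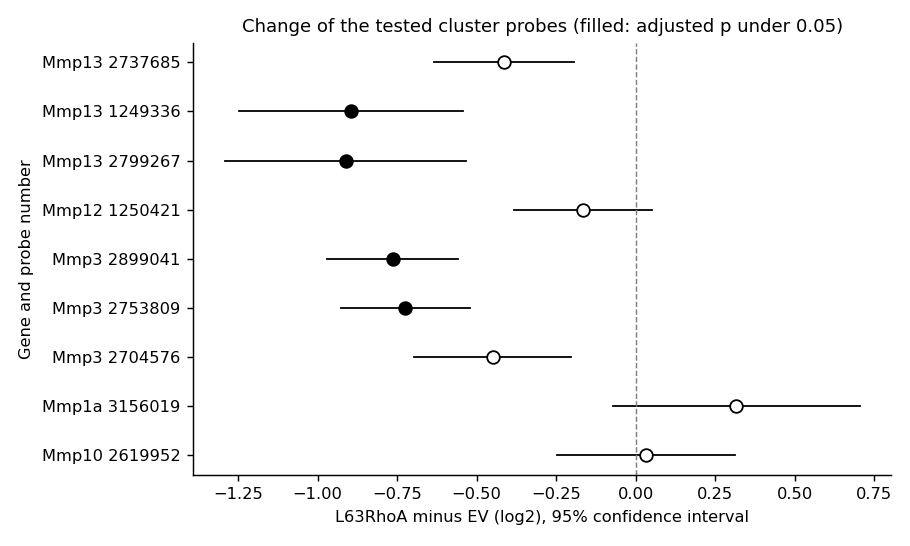
L63RhoA minus EV (log2) of the 9 tested cluster probes, with 95% confidence intervals from limma, in gene order along chromosome 9. Filled points are the 4 probes at an adjusted p under 0.05, and the intervals of Mmp12, Mmp1a and Mmp10 include 0.

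Mmp10, the other stromelysin, lies beyond Mmp1a from Mmp3 and was detected on all 8 arrays. Its signals at ILMN_2619952 were 553, 412, 510.4 and 473 in EV and 631, 503, 617 and 480.0 in L63RhoA. The groups overlapped. Normalised means were 8.78 ± 0.20 in EV and 8.82 ± 0.18 in L63RhoA (log2, SD, n = 4 each), a difference of 0.03 (SE 0.13, adjusted p = 0.90). Its interval, -0.25 to 0.31, does not reach the difference measured for Mmp3.

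Mmp1a and Mmp1b are the mouse counterparts of the human interstitial collagenase gene MMP1 and are close copies of each other. Mmp1a probe ILMN_3156019 read 124, 102, 137 and 112 in EV and 120.1, 152, 145 and 125 in L63RhoA, and was detected on all 8 arrays. The groups overlapped, and the difference was 0.32 (SE 0.18, interval -0.07 to 0.70, adjusted p = 0.30). It was 0.13 on the authors' values and with no further background correction (adjusted p = 0.33 in both), and 0.20 without L63RhoA replicate 2 (adjusted p = 0.58). Without EV replicate 3 and L63RhoA replicate 1 together it was 0.55 (adjusted p = 0.016), the only one of 20 alternatives under which it passed. The other Mmp1a probe, ILMN_3077034, was not detected on any array, with signals of 84.7 to 93.0 in EV and 93.4 to 101 in L63RhoA. The Mmp1b probe ILMN_1236455 was not detected either (82.6 to 97.8). Probe sequences were not used here, so whether a probe reads both copies was not checked.

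Mmp12, the elastase best known from macrophages, was close to the limit of detection. Probe ILMN_1250421 read 106, 98.4, 114 and 104 in EV and 109.6, 105, 111 and 104 in L63RhoA, and was detected on 4 of 4 EV and 3 of 4 L63RhoA arrays. Its signals overlapped, whereas its normalised values, 4.91 to 5.03 in EV and 4.59 to 4.91 in L63RhoA, did not, by a narrow margin. The difference of -0.17 (SE 0.098, interval -0.38 to 0.05) did not pass, with an adjusted p of 0.32. The macrophage marker list had 5 of 7 genes with a probe undetected on all arrays. Its signals summed to between 1207 and 1439 on the EV arrays and between 1357 and 1444 on the L63RhoA arrays. Only 2 of its 12 probes entered the comparison, so these sums are mostly background.

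The remaining members were not detected on any of the 8 arrays. Mmp8, the collagenase stored in neutrophil granules, read 83.6 to 94.1 at ILMN_1241378. Mmp20, the enamel protease of tooth, read 79.7 to 96.6 at ILMN_1251385, and Mmp7, the matrilysin of epithelia, read 83.7 to 97.4 at ILMN_2659804. These signals set no level for the genes, since each was at background. The neutrophil marker S100a8, a calcium-binding protein, was the only marker of another cell type that passed the test. It fell by 0.86 (adjusted p = 0.012), with signals of 153 to 187 in EV and 123 to 152 in L63RhoA, while S100a9 was not detected. Signals of the neutrophil list summed to between 949.7 and 1115 on the EV arrays and between 996 and 1072 on the L63RhoA arrays. Only 3 of its 10 probes entered the comparison, so these sums are mostly background and do not follow S100a8. The part of S100a8 in the Mmp3 and Mmp13 results was not tested. Markers of chondrocytes and osteoblasts, both known for Mmp13, had 3 genes each undetected on all arrays, and 0 passed.

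Whether the genes of the cluster differed among themselves was tested on the brightest probe of each detected gene, again by the log2 ratio on the same array. Of 10 gene pairs, 6 had an adjusted p of 0.048, each with an exact two-sided p of 0.029. Relative to Mmp3, Mmp10 was higher in L63RhoA than in EV by 0.80, Mmp1a by 1.08, Mmp12 by 0.60 and Mmp13 by 0.35. In all 4 of these the L63RhoA arrays lay above all EV arrays. The order of Mmp13 and Mmp3 turned with the Mmp13 probe. The change in Mmp3 minus that in Mmp13 was -0.35 with ILMN_2737685, 0.13 with ILMN_1249336 (adjusted p = 0.44), 0.15 with ILMN_2799267 (adjusted p = 0.51) and 0.095 with the mean of each gene's probes (adjusted p = 0.46). Which of these genes changed more was therefore not settled. Relative to Mmp13, Mmp12 was higher by 0.25 and Mmp1a by 0.73, whereas Mmp10 at 0.45 did not pass (exact p = 0.057, adjusted 0.082). The pairs among Mmp12, Mmp1a and Mmp10 did not pass, with adjusted p of 0.14 to 0.46. These ratios show unequal change and not that any gene was unchanged.

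**Figure D5:**
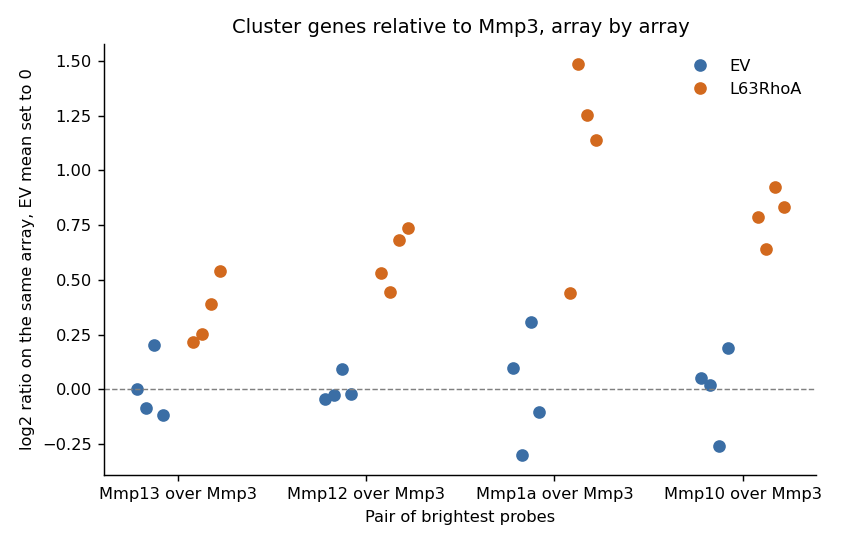
Log2 ratio of Mmp13, Mmp12, Mmp1a and Mmp10 to Mmp3 on the same array (brightest probe of each gene), with the EV mean of each pair set to 0, for EV (blue) and L63RhoA (orange). In each pair the 4 L63RhoA arrays lie above the 4 EV arrays, and for Mmp13, drawn from ILMN_2737685, the direction turned with its other probes.

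These 6 calls mostly did not hold when 1 array was left out. There, as with all 8 arrays, a pair could pass only if several other pairs also had the smallest p. Without EV replicate 4, 4 of the 6 kept an adjusted p of 0.048, and the 2 pairs with Mmp1a had 0.071. Without each of the other 7 arrays all 6 were between 0.057 and 0.12. All 6 differences kept their direction under the 12 alternatives that kept these probes. With another Mmp3 or Mmp13 probe, or the mean of the probes, all kept it other than that between Mmp13 and Mmp3. Of these runs, only that with Mmp3 probe ILMN_2753809 kept an adjusted p of 0.048 for its 4 pairs. In the others the pairs of Mmp3 or Mmp13 with Mmp12, Mmp1a and Mmp10 had an adjusted p of 0.057 to 0.095. The pair of Mmp13 and Mmp3 also missed on the authors' values and with no further background correction, with an adjusted p of 0.082 in both.

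The genes whose pattern over the 8 arrays was most like that of Mmp3 were H4c8, H2-Q8, Klra4, Rnf41 and Zfp524, among 7361 genes with a probe detected on all arrays. The measure was the root mean square log2 difference after centring each profile, which was 0.086 for H4c8 and 0.12 for Zfp524, with a median of 0.42 over all genes. Mmp13 stood at 0.22 from Mmp3 and Mmp10 at 0.42. For Mmp13 the nearest were Tgs1, Med19, Akr1b8, Csf2 and Ctsa, at 0.082 to 0.10, with a median of 0.28, and Mmp12 stood at 0.14. These values describe 8 arrays that share 1 contrast.

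Outside the cluster, 13 further metalloproteinase genes were listed, of which 7 probes of 7 genes were tested and 0 passed in either direction. The median difference was 0.14. Mmp14, the membrane-bound enzyme that activates other metalloproteinases, differed by 0.45 (SE 0.12, adjusted p = 0.11), and Mmp9, a gelatinase, by 0.62 (SE 0.22, adjusted p = 0.16). Both had overlapping groups.

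Among inhibitors, 6 probes of 4 genes were tested, and 1 was higher and 0 lower. Timp3, the tissue inhibitor that binds to matrix, rose by 0.51 at ILMN_2741096 (SE 0.085, adjusted p = 0.032), with signals of 765 to 1349 in EV and 1391 to 1588 in L63RhoA. Its other probe, ILMN_2614759, differed by 0.01 (adjusted p = 0.98). Timp2 differed by -0.52 (adjusted p = 0.12) and Timp1 by 0.15 at ILMN_2769918 (adjusted p = 0.30).

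Of the genes listed for activation of the proenzymes, which are proteases and the urokinase receptor gene Plaur, 6 probes of 6 genes were tested and 0 passed. Plau, the urokinase-type plasminogen activator, was nearest, at 0.54 (SE 0.11, adjusted p = 0.052) with groups that did not overlap. Plasminogen itself (Plg) and Plat were not detected on any array.

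Of 19 tested probes for known substrates of MMP3, 1 was higher and 0 lower, compared with 0.324% and 0.316% of all probes. At an unadjusted p 1 was higher and 7 were lower, compared with 11.7% and 11.4%. Some genes, Tnc among them, gave more than 1 of the lower probes, so the 7 do not stand for 7 separate genes. Ccn2, which encodes connective tissue growth factor, rose by 0.50 (SE 0.082, adjusted p = 0.029), with signals of 281 to 423 in EV and 466 to 523 in L63RhoA. Tenascin-C (Tnc) differed by -0.55 (adjusted p = 0.058) at ILMN_2463181 and by -0.49 (adjusted p = 0.088) at ILMN_2463180. Mmp3, Timp3 and Ccn2 were picked by the study from these same arrays, so their directions here are not independent evidence.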

How the data were processed

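Total RNA of 8 cultures (4 EV, 4 L63RhoA) was hybridised to Illumina MouseRef-8 v2.0 arrays, and groups were taken from the sample records. Per the methods, signals were extracted with GenomeStudio (version not given in the sources used here), transformed and quantile normalised by the authors with lumi. The deposited signal intensities are linear, and the lowest was 75.2, so no background had been subtracted down to 0. A deposited detection p-value accompanies each intensity. The authors' processed values are log2, with a median of 6.64 on every array. They were used only as an alternative. Their ordered values on EV replicate 1 lay within 0.017 of the log2 of quantile normalised intensities, so no variance stabilizing transformation was visible.

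Intensities were corrected and quantile normalised with neqc (limma 3.58.1, R 4.3.3, offset 16). The 12349 probes detected (p under 0.05) on 4 or more arrays were fitted with lmFit and eBayes, EV and L63RhoA only, two-sided, with Benjamini-Hochberg adjustment over all probes and a threshold of 0.05. Gene symbols came from the platform annotation, with 23978 of 25697 probes having 1 symbol, of which 23962 were brought up to date through RefSeq identifiers. Differences between probes or genes were tested by exact permutation of arrays. The limma fit was tested on simulated data and the permutation test on values with a known p. The other steps were not tested in this way.

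The cluster members, the gene lists and the tests were chosen with earlier results of these data known. Genes named were every cluster probe, Rhoa, the 5 genes most like Mmp3 and Mmp13, and, from each list, probes that passed and at most 3 with the smallest p. Names of undetected or tested marker genes and of Plg, Plat, Plaur, Fos, Jun, Junb and Fosl1 were added after their values were seen. Alternatives were a robust variance trend, a stricter filter, no filter, array weights, the replicate block and an ordinary t-test with pooled variance. Others were the authors' values, scaling to a common median, the deposited intensities uncorrected and 1 value per gene. Other probes for the gene pairs were added after seeing the data. Each array, or EV replicate 3 and L63RhoA replicate 1 together, was also left out. Nothing says that the samples came from separate cultures beyond the 4 independent experiments, so each p-value reflects only how much these 8 samples vary. The number of arrays limits the precision.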

Additional observations from a re-analysis of the deposited data

Results flagged for a closer look

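In the L63RhoA group, replicate 2 was the lowest of the 4 arrays at Mmp13 probe ILMN_2737685, at 13.16 against 13.35 for the nearest (log2). The gap was 0.945 of the whole range of the group. Among 18 combinations of probe and group checked, this was the only array that stood apart in this way. Chance gives a gap large enough to be flagged in about 1 of 20 groups. After normalisation, L63RhoA replicates 3 and 4 had the same value, 13.37. The deposited signals were 10766, 9689, 10883 and 10141 in L63RhoA replicates 1 to 4. There replicate 2 was also lowest, but replicate 4 lay closer to it than to replicate 1.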

How the results depend on the processing

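Mmp3 probes ILMN_2899041 and ILMN_2753809 passed under all 20 and all 18 alternatives run, with adjusted p of 3.1e-04 to 0.048 and up to 0.04996. The 20 include the mean of all Mmp3 probes in place of ILMN_2899041. Against 4 cluster probes lower and 79 probes called in all, the counts were 2 (both of Mmp3) and 21 with the replicate block. They were 2 and 26 with an ordinary t-test, and 2 were lower with no filter on dim probes. The settings with 1 value per gene count genes and not probes. The mean of a gene's probes gave 2 lower, Mmp3 and Mmp13 (limma adjusted p = 0.0047 and 0.012). The brightest probe per gene gave 1, Mmp3. The cluster count was 6 with array weights, with the robust variance trend, with no further background correction and on the authors' processed values, and 3 with median scaling. Mmp3 probe ILMN_2704576 passed in the 4 settings that gave 6 (adjusted p of 0.026 to 0.0498). All probes called were 169 with no further background correction, 170 on the authors' processed values, 38 with median scaling, 226 with the robust variance trend and 2303 with array weights. Leaving out 1 array gave 2 to 6 cluster probes lower and 19 (without EV replicate 1) to 1588 (without L63RhoA replicate 1) called in all, with 1058 without EV replicate 3. Without EV replicate 3 and L63RhoA replicate 1 together, 3297 were called and 1 cluster probe was higher. The replicate numbers did not pair the samples (same-number correlations -0.21 to 0.25).

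Mmp13 probe ILMN_2737685 passed on the authors' values (-0.41, adjusted p = 0.030), with no further correction (-0.41, 0.029), with the robust trend (-0.41, 0.015) and with array weights (-0.41, 0.021). It also passed without EV replicate 3 and L63RhoA replicate 1 together (-0.37, 0.024). With 1 array left out its difference was -0.45 to -0.37. The mean of all Mmp13 probes, which is not a value of this probe alone, passed as well (-0.74, 0.012). The small Mmp10 difference turned to -0.033 with array weights and -0.12 without both arrays, and ran from -0.061 to 0.10 with 1 array left out. The difference in change between Mmp13 probes ILMN_1249336 and ILMN_2799267 turned to 0.33 on the authors' values, 0.33 with no further correction and 0.027 without both arrays, and ran from -0.10 to 0.14 with 1 array left out. That between Mmp3 probes ILMN_2899041 and ILMN_2753809 ran from -0.013 to 0.13. The change in Mmp3 minus that in Mmp13, -0.35, turned to 0.13 and 0.15 with Mmp13 probes ILMN_1249336 and ILMN_2799267 and to 0.095 with the mean of each gene's probes, choices added after seeing the data. The ordinary t-test on the neqc values, at the methods' 20% false discovery rate, called 6 cluster probes and 686 probes in all. It is not the study's own procedure, which took p-values from permutations and added a fold-change cutoff. The cause of these shifts was not tested. Signals near background, as for Mmp12 and Mmp1a, limit what can be said of those genes.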

Other observations

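Factors of the AP-1 and ETS families, which bind the promoters of several metalloproteinase genes, had 16 probes of 13 genes tested and 0 passed. Their median difference was 0.07, and at an unadjusted p 4 were higher and 2 lower, compared with 11.7% and 11.4% of all probes tested. Fos differed by 0.38 (adjusted p = 0.17), Jun by 0.51 (adjusted p = 0.18), Fosl1 by 0.23 (adjusted p = 0.26) and Ets2 by 0.36 (adjusted p = 0.12). Etv4 differed by -0.64 (adjusted p = 0.17) and Junb, an AP-1 factor, by -0.59 (adjusted p = 0.18), so the AP-1 genes did not all lean 1 way. Elf3 probe ILMN_2692072, 1 of the 4 higher, was detected on 0 EV and 4 L63RhoA arrays, with signals of 87.5 to 100 and 104 to 114. It entered the comparison only through L63RhoA, so its test (limma adjusted p = 0.072) lends no weight to a rise. The Elf3 probes ILMN_2621659 and ILMN_2850233 were detected on 0 EV arrays and on 1 and 0 L63RhoA arrays.

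Cytokines that induce the cluster genes, and their receptors, had 24 probes of 12 genes tested. At the adjusted threshold 0 passed, and at an unadjusted p 0 were higher and 8 lower, compared with 11.7% and 11.4% of all probes tested. Il17rc and Tnfrsf1a each gave more than 1 of these, so the 8 do not stand for 8 separate genes. The median was -0.16. The receptor gene Il17rc, part of the receptor for interleukin 17, differed by -0.68 (adjusted p = 0.066) at ILMN_2785353 and -0.47 (adjusted p = 0.093) at ILMN_2695344, but by 0.09 (adjusted p = 0.79) at ILMN_2785350. Tnfrsf1a, a receptor for tumour necrosis factor, differed by -0.78 (adjusted p = 0.093) at ILMN_2469333, and its other 2 probes gave -0.62 and -0.59.

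The protein-coding genes next to the cluster with a probe were Dcun1d5, Birc2 and Birc3, and 0 of their 5 probes passed. Their differences were -0.01 for Dcun1d5, -0.18, -0.09 and -0.03 for Birc2, and -0.03 for Birc3. When the filter on dim probes was dropped, the 5 cluster probes not detected on any array had differences of -0.07 (Mmp8) to 0.14 (Mmp1a), with adjusted p of 0.29 to 0.94.

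Of the remaining marker lists, 3 endothelial probes, 1 epithelial probe, 1 chondrocyte probe (Sox9, -0.52, adjusted p = 0.096) and 2 osteoblast probes were tested and 0 passed. Tek, an endothelial receptor, was detected on 0 EV and 4 L63RhoA arrays, with signals of 87.6 to 102 and 101 to 115. It too entered the comparison only through L63RhoA, so its test (limma adjusted p = 0.092) lends no weight to a rise.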
